A study of Homo sapiens with 6 samples.

Results

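The genes described here are DEPP1, IGFBP1 and 8 further genes of the insulin and FOXO axis, namely FOXO1, FOXO3, FOXO4, IRS1, IRS2, INSR, TXNIP and PDK4, in HepG2 cells exposed to sedanolide. The 10 genes were taken by symbol from the 61541 genes of the deposited count table, and all 10 were matched to an Ensembl gene. They were selected on the same comparison that is described below, so that the differences between sedanolide and control cells are given for them as a description without p-values. Where the text says that a member passed the thresholds set for all genes, this describes the values that selected it and is no evidence for it.

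Insulin binds its receptor INSR, and the receptor passes the signal on through the adaptor proteins IRS1 and IRS2 to the kinases PI3K and AKT. AKT phosphorylates the forkhead transcription factors FOXO1, FOXO3 and FOXO4 and keeps them out of the nucleus. In the fasted liver, where insulin is low, FOXO factors act on genes for glucose production and on IGFBP1. DEPP1, IGFBP1 and PDK4 are known as genes that FOXO factors raise, and TXNIP responds to glucose. FOXO activity is set largely by phosphorylation and location of the protein, which RNA levels do not measure.

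RNA was sequenced from luciferases-expressing HepG2 cells, a human hepatoblastoma line in which both groups carry the SLR3 and ELuc luciferase reporters. Cells were exposed to sedanolide, a phthalide of celery, at 100 μM for 24 h, and the other group was the control of the same time (n = 3 libraries each). Sedanolide was dissolved in dimethyl sulfoxide, but the vehicle given to the control cells is not given in the sources used here. The cells grew in medium with fetal bovine serum, and no insulin or glucose treatment is named. It is not stated whether the libraries came from separate cultures, so that p-values measure only the spread between these libraries. The series holds 1 cell line and 1 dose. Total expected counts were 16420258 to 22940963 in control and 19027265 to 26714853 in sedanolide libraries.

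Expected counts are read counts in which reads shared between genes are divided. They were scaled to normalized CPM, counts scaled to a common library size, and 14102 genes and 2 reporters with enough counts were tested with edgeR's quasi-likelihood test. A gene was called at a Benjamini-Hochberg false discovery rate (FDR) of 0.05 together with a fold change of 1.5. The libraries also separated along a line other than the treatment. Component 1 of a principal component analysis held 56.1% of the variance and put control 1, control 2 and sedanolide 3 on 1 side, with mitochondrial transcripts at 1.43% to 2.15% of counts. Control 3, sedanolide 1 and sedanolide 2 lay on the other side, at 4.23% to 5.22%. Values are therefore also given within each side. Sedanolide 3 was the only treated library on its side, and control 3 was the only control library on the other. The side was thus partly confounded with treatment, and each difference within a side rests on a single library of 1 group, without a spread. All 9 hepatocyte markers searched for were tested, and their summed level was 29900 to 45900 CPM in control and 22100 to 38900 CPM in sedanolide libraries. Of the other cell types, fibroblast markers summed to at most 0.17 CPM with COL1A2, DCN and LUM at 0, and endothelial markers summed to 3.89 to 5.29 CPM with VWF at 0. Leukocyte markers summed to 815 to 1330 CPM in control and 481 to 770 CPM in sedanolide libraries, but LYZ gave nearly all of this, CD3E was at 0 and PTPRC averaged 0.037 CPM. The part of the hepatocyte and LYZ levels in the results was not tested.

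DEPP1 was the member with the largest difference. The gene lies at chr10:44970981-44978809 on the minus strand (GRCh38) and encodes a protein of peroxisomes and mitochondria that modulates autophagy. The sequence before its start is shown because FOXO factors bind the forkhead core GTAAACA. DEPP1 held this core 180 to 174 bases upstream of its annotated start in the RefSeq promoter window. TXNIP held it 124 to 118 bases upstream in 1 of its 2 windows. Both stretches of 100 bases are given 5′ to 3′ on the strand of the gene (GRCh38.p14, minus strand), with the core in capitals. The DEPP1 stretch is chr10:44978937-44979036 and the TXNIP stretch is chr1:145996651-145996750.
DEPP1: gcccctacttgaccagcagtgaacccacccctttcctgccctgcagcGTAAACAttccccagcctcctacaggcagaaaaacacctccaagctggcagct
TXNIP: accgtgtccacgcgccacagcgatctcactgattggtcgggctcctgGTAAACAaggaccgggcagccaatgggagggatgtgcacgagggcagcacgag

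Promoter windows of 250 bases before to 50 bases after the start were matched for 9 of the 10 members, all but IGFBP1. FOXO3 had 4 windows, TXNIP had 2 and the others had 1 each, so that FOXO3 and TXNIP had more places for a match. On both strands these windows were searched for the forkhead core GTAAACA, the insulin response sequence core CAAAACA, the E-box CACGTG and the antioxidant response element core TGACNNNGC. The E-box was chosen for carbohydrate response elements, but only these exact letters were matched. Carbohydrate response elements with other letters were not searched for, so that the lack of a match, as in TXNIP, does not show that one is missing. Of 35116 human promoter windows, 3.42% held the forkhead core, 4.92% the insulin response sequence core, 7.26% the E-box and 13.3% the antioxidant response element core. Besides DEPP1 and TXNIP, FOXO4 held the forkhead core, 23 to 29 bases downstream of its start. IRS2 held the insulin response sequence core 40 to 34 bases upstream and the antioxidant response element core 54 to 46 bases upstream, both on the opposite strand. A window of FOXO3 held the antioxidant response element core 15 to 7 bases upstream. IRS1 held the E-box 35 to 40 bases downstream and, overlapping it by position on the opposite strand, the antioxidant response element core 28 to 36 bases downstream. None of these letters were found in the windows of FOXO1, INSR and PDK4. These matches describe the letters only.

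In control cells, DEPP1 stood at 168, 151 and 173 normalized CPM in controls 1 to 3, and in sedanolide-treated cells it stood at 54.5, 50.1 and 50.3 CPM in sedanolide 1 to 3. The sedanolide libraries all lay far below the control libraries and within a few CPM of one another. The mean was 164.0 ± 11.4 CPM in control and 51.6 ± 2.49 CPM in sedanolide libraries (SD, n = 3 each), which is 31.5% of control, and the log2 fold change was −1.67 with a standard error of 0.12. Within the side of low mitochondrial share the log2 fold change was −1.66, and within the other side it was −1.72. In a bulk sample, fewer cells with the transcript and less transcript per cell cannot be told apart.

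DEPP1 shares 695 exonic bases with RASSF4, a gene on the opposite strand that encodes a RAS association domain protein. Over all libraries RASSF4 had 26.7% as many counts as DEPP1. RASSF4 stood at 36.8, 31.9 and 33.4 CPM in control libraries and at 22.3, 21.6 and 21.4 CPM in sedanolide libraries. All sedanolide libraries lay below all control libraries, with a log2 fold change of −0.64 (standard error 0.11), and the gene did not pass edgeR's quasi-likelihood test (adjusted p = 0.0679). The libraries were directional, but whether the counting used the strand is not given in the sources used here, and the part of shared reads in the DEPP1 values was not tested.

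IGFBP1, a secreted hepatic protein that binds insulin-like growth factors and is repressed by insulin in the liver, lies at chr7:45888360-45893660 on the plus strand. It stood at 940.5, 1128 and 918 CPM in control libraries and at 499, 459.8 and 542 CPM in sedanolide libraries. The groups were widely separated, and the highest sedanolide library, sedanolide 3, lay on the same side of component 1 as the highest control library, control 2. The mean was 995.5 ± 115 CPM in control and 500.4 ± 41.2 CPM in sedanolide libraries (SD, n = 3 each), or 50.3% of control. The log2 fold change was −0.99 with a standard error of 0.13. It was −0.93 and −0.94 within the sides of low and high mitochondrial share.

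**Figure D1:**
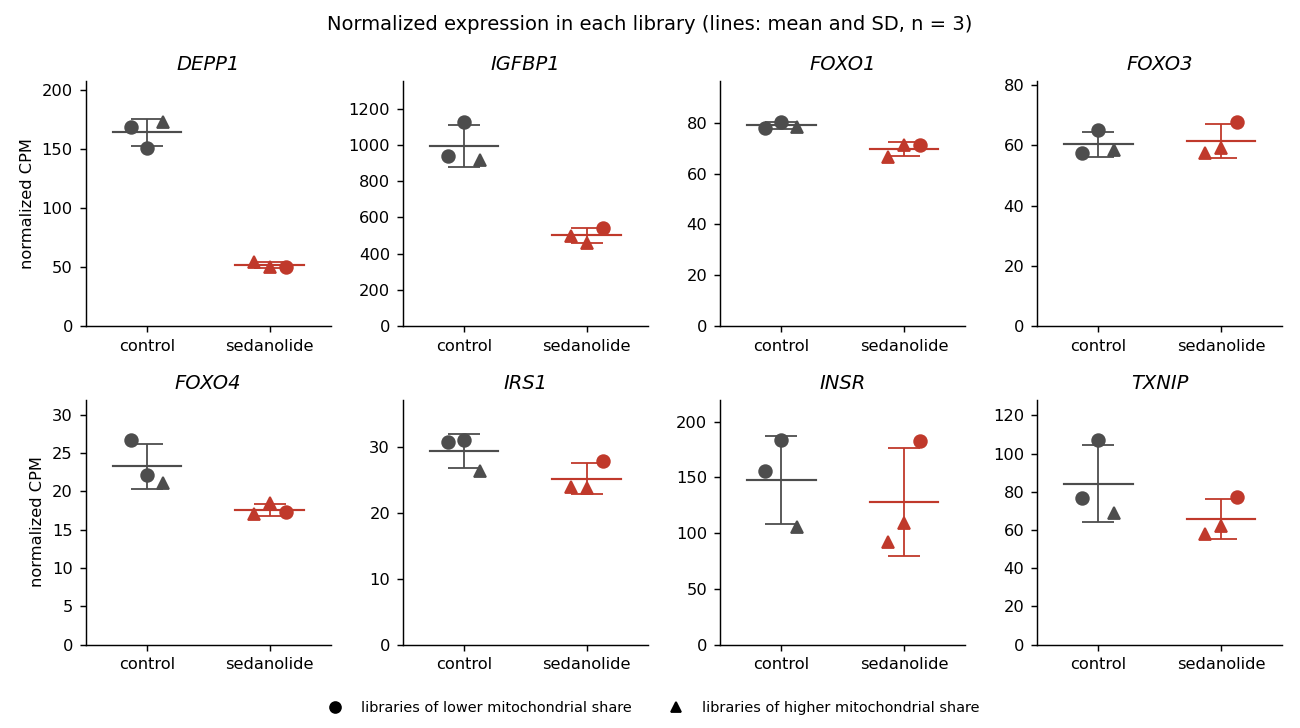
Normalized CPM of the 8 tested members in each library, on linear axes from 0, with the mean (horizontal line) and SD (bar) of n = 3 libraries per group. Circles mark control 1, control 2 and sedanolide 3 and triangles the other libraries. DEPP1 and IGFBP1 were separated widely between the groups, and INSR followed the symbols rather than the groups.

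Of the transcription factors, FOXO1 and FOXO4 were lower in all sedanolide libraries than in all control libraries, and FOXO3 overlapped. FOXO1 (chr13:40555667-40666641, minus strand), the main FOXO factor of liver glucose production, stood at 78.0, 80.4 and 78.5 CPM in control libraries and at 66.7, 71.3 and 71.1 CPM in sedanolide libraries. The gap was small but so was the spread, with means of 78.9 ± 1.26 and 69.7 ± 2.62 CPM (SD, n = 3 each) and a log2 fold change of −0.18 (standard error 0.10). FOXO1 shares 1352 exonic bases with a long noncoding RNA on its own strand that had 0 counts.

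FOXO4 (chrX:71095851-71103532, plus strand) stood at 26.7, 22.1 and 21.1 CPM in control libraries and at 17.04, 18.5 and 17.3 CPM in sedanolide libraries. Control 1 was the highest, and the sedanolide libraries lay close together below the lowest control. The log2 fold change was −0.40 with a standard error of 0.13, with −0.49 within the side of low and −0.25 within the side of high mitochondrial share. In the TPM described below, the FOXO4 groups overlapped, at 9.30 to 13.2 in control and 7.08 to 11.1 in sedanolide libraries. Those of FOXO1 were only narrowly apart, at 18.57 to 22.0 in control and 14.6 to 18.35 in sedanolide libraries. The median log2 fold change over all features was −0.07 in the log2(TPM + 1) values, beside 0.01 in the main fit. The part of this shift in the narrow FOXO1 gap was not tested.

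FOXO3 (chr6:108559835-108684774, plus strand), which takes part in stress resistance and autophagy, stood at 57.5, 65.2 and 58.3 CPM in control libraries and at 57.5, 59.1 and 67.8 CPM in sedanolide libraries. The groups overlapped fully, with control 2 and sedanolide 3 the highest of their groups, and the log2 fold change was 0.03 with a standard error of 0.12. Its sign turned in 5 of 16 other settings. FOXO3 has a nearly identical pseudogene copy, and its expected counts were not whole numbers, so that its level carries the uncertainty of shared reads.

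Among the receptor and its adaptors, no member separated the groups. INSR (chr19:7112255-7294414, minus strand) stood at 155, 183 and 105 CPM in control libraries and at 91.7, 109 and 183 CPM in sedanolide libraries. Its levels followed the side of component 1, at 155 to 183 CPM in the 3 libraries of low mitochondrial share and 91.7 to 109 CPM in the 3 of high share. The pooled log2 fold change of −0.21 had a standard error of 0.30, and the differences within sides were 0.12 and −0.07 on the log2 scale. The part of the side in the INSR values was not tested. The sign of the pooled value turned in 1 of 16 other settings.

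IRS1 (chr2:226731312-226799820, minus strand) stood at 30.8, 31.1 and 26.4 CPM in control libraries and at 23.9, 23.8 and 27.9 CPM in sedanolide libraries. The groups overlapped through control 3 and sedanolide 3, and the libraries separated by the side of component 1, at 27.9 to 31.1 CPM against 23.8 to 26.4 CPM, whose part was not tested. The log2 fold change of −0.22 had a standard error of 0.13, with −0.15 within either side. IRS2 (chr13:109752695-109786583, minus strand), the other main adaptor of the liver, had 0 counts in all libraries but sedanolide 3, which had 1. A count of 0 allows up to 3 counts, or 0.116 to 0.182 CPM depending on the library, by counting error only. IRS2 was therefore at the limit of detection in both groups, and no fold is given.

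TXNIP, the arrestin-fold protein that binds thioredoxin and restrains glucose uptake, lies at chr1:145992435-145996579 on the minus strand. It stood at 76.8, 107 and 68.6 CPM in control libraries and at 57.7, 62.1 and 77.4 CPM in sedanolide libraries. The groups overlapped, and the libraries separated by the side of component 1, at 76.8 to 107 CPM against 57.7 to 68.6 CPM. The log2 fold change of −0.36 had a standard error of 0.20, and within the sides the differences were −0.23 and −0.20. The part of the side was not tested. PDK4 (chr7:95583499-95596516, minus strand) is a kinase that switches off pyruvate dehydrogenase in fasting. It had 0, 2 and 0 counts in control and 1, 1 and 0 counts in sedanolide libraries. These counts were too few to be tested, and no fold is given.

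**Figure D2:**
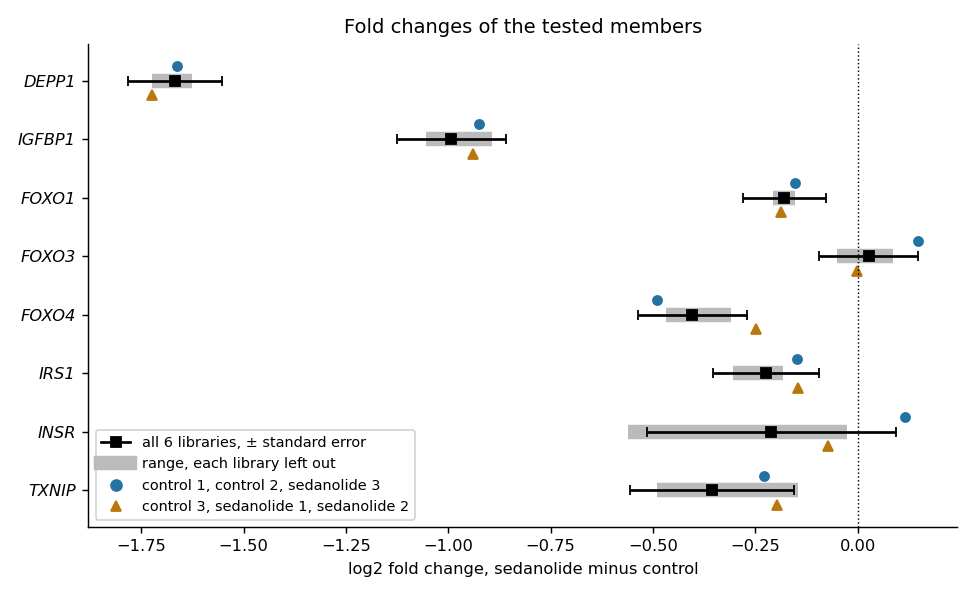
Log2 fold change of sedanolide over control for the 8 tested members, with the standard error (black squares and bars), the range with each library left out in turn (grey bars) and the values within each side of component 1 (circles and triangles). DEPP1 at −1.67 and IGFBP1 at −0.99 lay apart from 0 in all of these, and the values of FOXO3 and INSR lay on both sides of 0.

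Of the 10 members, 8 had enough counts to be tested, 2 were called lower (DEPP1 and IGFBP1) and 0 higher. Of all features tested, 0.674% were called, 0.312% lower and 0.362% higher. The groups did not overlap, with sedanolide lower, for 4 members (DEPP1, IGFBP1, FOXO1 and FOXO4) and for 9.66% of all features. Since these members were selected on this comparison, nothing is read from these counts. In edgeR neither DEPP1 nor IGFBP1 was called without control 1 or without sedanolide 2, when 0 genes of the whole table were called although 1067 and 889 had an unadjusted p under 0.05. Without control 2, control 3 or sedanolide 1, DEPP1 was called and IGFBP1 was not. The log2 fold changes stayed between −1.78 and −1.63 for DEPP1 and between −1.10 and −0.89 for IGFBP1 over 16 settings.

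Levels between genes were compared per length, in TPM, which divide reads by transcript length before scaling, recovered from the deposited log2 table, which lists 8 of the members. In control cells the order was IGFBP1 at 1087 ± 209 TPM, DEPP1 at 121 ± 1.37, TXNIP at 46.0 ± 14.5, INSR at 32.4 ± 8.71, FOXO1 at 20.01 ± 1.80, FOXO3 at 12.2 ± 1.83, FOXO4 at 10.97 ± 2.04 and IRS1 at 4.44 ± 0.54 TPM (SD, n = 3). The neighbours TXNIP and INSR overlapped, as did FOXO3 and FOXO4, and the other neighbours did not. In sedanolide-treated cells the order of the means was the same. DEPP1, at 35.4 ± 2.13 TPM, then overlapped TXNIP, at 33.0 ± 8.32 TPM, and INSR, at 25.4 ± 15.6 TPM, which spanned 14.0 to 43.2 TPM. IGFBP1 remained the highest, at 504 ± 80.2 TPM.

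**Figure D3:**
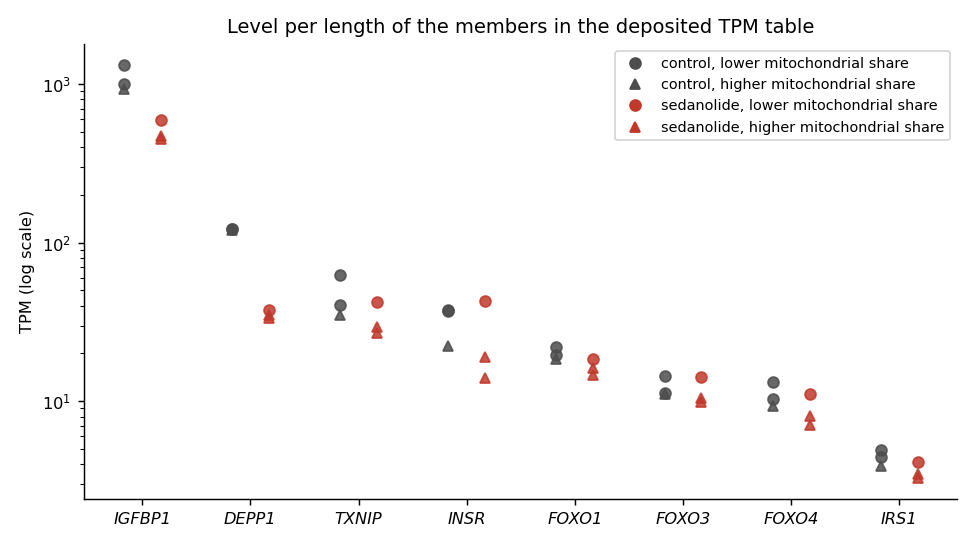
TPM of the 8 members listed in the deposited log2 table, on a log axis, ordered by the control mean, with 1 point per library. IGFBP1 was the highest in both groups, and in sedanolide libraries DEPP1 (33.5 to 37.7 TPM) lay in the range of TXNIP (26.9 to 42.5 TPM).

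Within the FOXO family, FOXO1 held 44.2% to 47.7% of the summed TPM of FOXO1, FOXO3 and FOXO4 in control and 42.1% to 46.4% in sedanolide libraries. FOXO3 held 25.6% to 30.6% and 30.2% to 32.6%, and FOXO4 held 22.2% to 30.1% and 22.4% to 25.3%. All 3 shares overlapped between the groups. Among the 4 binding proteins of the IGFBP family in the table, IGFBP1 held 91.3% to 93.5% of the summed TPM in control and 89.8% to 91.0% in sedanolide libraries, so that this gene gave most of the IGFBP transcripts in both groups.

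The neighbouring pathway genes were taken from 9 lists of 177 genes that leave out the members, of which 155 were tested. Of these, 3 were called, all lower, and 0 higher, which is 1.94% of the listed genes tested beside 0.674% of all features. The median log2 fold change of the listed genes was −0.02, beside 0.01 over all features. The 3 called genes were SGK1, G6PC1 and IGFBP7, from 3 lists. The lists were written with earlier results of these data known. Their shares and the adjusted p-values of their genes are therefore a description and no independent evidence.

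SGK1, a kinase that phosphorylates FOXO factors at sites shared with AKT, stood at 89.2, 99.3 and 95.6 CPM in control libraries and at 31.7, 31.9 and 31.0 CPM in sedanolide libraries. It fell to 33.3% of control, with all sedanolide libraries below all controls (log2 fold change −1.59, standard error 0.11, adjusted p = 0.00324 by edgeR's quasi-likelihood test). The list of FOXO regulators, which holds acetylases, ubiquitin enzymes, kinases, 14-3-3 proteins and the exporter XPO1, had 24 of 25 genes tested and SGK1 alone called, with a median of 0.09. The further genes of this list with the largest separated differences were not called. The 14-3-3 proteins SFN and YWHAH, which hold phosphorylated FOXO in the cytoplasm, had log2 fold changes of 0.47 and 0.43, and XPO1, which carries FOXO out of the nucleus, had 0.41.

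G6PC1, the catalytic subunit of glucose-6-phosphatase and a FOXO1 target of the liver, stood at 13.9, 18.5 and 9.44 CPM in control libraries and at 1.83, 1.89 and 3.09 CPM in sedanolide libraries. It fell to 16.4% of control in the fit (log2 fold change −2.61, standard error 0.32, adjusted p = 0.0259 by edgeR's quasi-likelihood test), with all sedanolide libraries below all controls. It was not called in the TPM table. Of the 35 listed FOXO target genes, 31 were tested and 1, G6PC1, was called by edgeR. Among the untested ones, SOD2 was not matched by symbol to the deposited counts, so that its level is not known here. DESeq2 called TNFSF10 as well, as did edgeR with a term for the side of component 1. The median log2 fold change was −0.16, and 23 of the 31 (74.2%) had a negative value, beside 49.3% of all features. The groups did not overlap, with sedanolide lower, for 9 (29.0%, beside 9.66% of all features), and for 1 with sedanolide higher. Since this list was written with earlier results of these data known, nothing is read from these shares. SESN3, a sestrin that restrains mTORC1, differed by −0.83 on the log2 scale (adjusted p = 0.294 by edgeR). The death ligand TNFSF10 had −0.66, the transcription factor KLF15 −0.65 and the cyclin CCNG2 −0.58, and none of these was called by edgeR without a further term.

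IGFBP7, a secreted protein related to the IGF binding proteins, stood at 10.97, 14.2 and 11.2 CPM in control libraries and at 3.60, 4.87 and 3.61 CPM in sedanolide libraries. It fell to 33.3% of control, with all sedanolide libraries below all controls (log2 fold change −1.59, standard error 0.19, adjusted p = 0.0231 by edgeR's quasi-likelihood test). The expected counts of IGFBP7 were not whole numbers, so that its level carries the uncertainty of shared reads. IGFBP4, another binding protein, stood at 94.0 ± 12.1 CPM in control and 62.7 ± 13.3 CPM in sedanolide libraries (SD, n = 3 each) and was not called, with groups that did not overlap and a log2 fold change of −0.58 (adjusted p = 0.269 by edgeR). Of the 14 genes of the IGF system, 6 were tested, with a median of −0.22. IGF2, a growth factor that IGFBP1 binds, was named after its values were seen. It stood at 491, 468 and 245 CPM in control libraries and at 135, 153 and 286 CPM in sedanolide libraries, so that the groups overlapped through control 3 and sedanolide 3. Its log2 fold change was −1.07 with a standard error of 0.37 (adjusted p = 0.313 by edgeR's quasi-likelihood test), and it was called only with a term for the side of component 1 among the settings run. None of SGK1, G6PC1 and IGFBP7 was called by edgeR without control 1 or without sedanolide 2. Without control 2 or without sedanolide 1 only SGK1 of these was called, and without control 3 only SGK1 and G6PC1.

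The list of insulin and PI3K-AKT signalling runs from receptors to AKT and on to mTOR and other genes below AKT. Of its 46 genes, 42 were tested and 0 were called by edgeR. At an unadjusted p under 0.05 there were 4 higher and 2 lower of the 42. Of all 14104 features, 754 were higher and 927 lower at this p, together 11.9%. The median log2 fold change of the list was 0.02. The groups did not overlap for 7 genes with sedanolide higher and 4 with sedanolide lower, beside 8.69% and 9.66% of all features. The largest separated values were those of SOCS1 and SOCS3, suppressors of cytokine and insulin signalling, at −0.76 and −0.61, of which SOCS3 was called with a term for the side of component 1, and of the adaptors SHC1 and GRB10, at 0.38 and 0.37.

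Around TXNIP, 15 of 16 genes of arrestins and glucose sensing were tested and 0 were called by edgeR, with a median of 0.10. Of the 15, 1 was higher and 2 were lower at an unadjusted p under 0.05, beside 11.9% of all features in either direction. TXN, the thioredoxin that TXNIP binds, stood at 132, 110 and 142 CPM in control libraries and at 253, 230.1 and 198 CPM in sedanolide libraries. All sedanolide libraries lay above all controls, and the log2 fold change of 0.82 (standard error 0.15) missed the threshold of edgeR's quasi-likelihood test (adjusted p = 0.0774). SLC2A2, the main glucose transporter of hepatocytes, lay lower in all sedanolide libraries with a log2 fold change of −0.71 (adjusted p = 0.0689 by edgeR). Both TXN and SLC2A2 were called by DESeq2 and by edgeR with a term for the side of component 1. TXN was also called without a filter and without sedanolide 3. PKLR, the liver pyruvate kinase, had −0.43, and the arrestin ARRB1 had 0.10.

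Around PDK4, all 13 genes of pyruvate dehydrogenase control were tested and 0 were called by edgeR, with a median of −0.03. Of the 13, 1 was lower and 0 higher at an unadjusted p under 0.05, beside 11.9% of all features in either direction. PDK2, a pyruvate dehydrogenase kinase that these cells did express, stood at 44.2 ± 4.68 CPM in control and 33.4 ± 2.96 CPM in sedanolide libraries (SD, n = 3 each), with a log2 fold change of −0.40. Of the 9 listed liver genes that insulin induces, 8 were tested and 0 were called by edgeR, with a median of −0.28. Of these 8, 2 were lower at an unadjusted p under 0.05, beside the same 11.9% of all features. SREBF1, the lipogenic transcription factor, and PNPLA3, a lipid droplet protein, each had −0.49, and ACACA, an acetyl-CoA carboxylase of fatty acid synthesis, had 0.14.

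**Figure D4:**
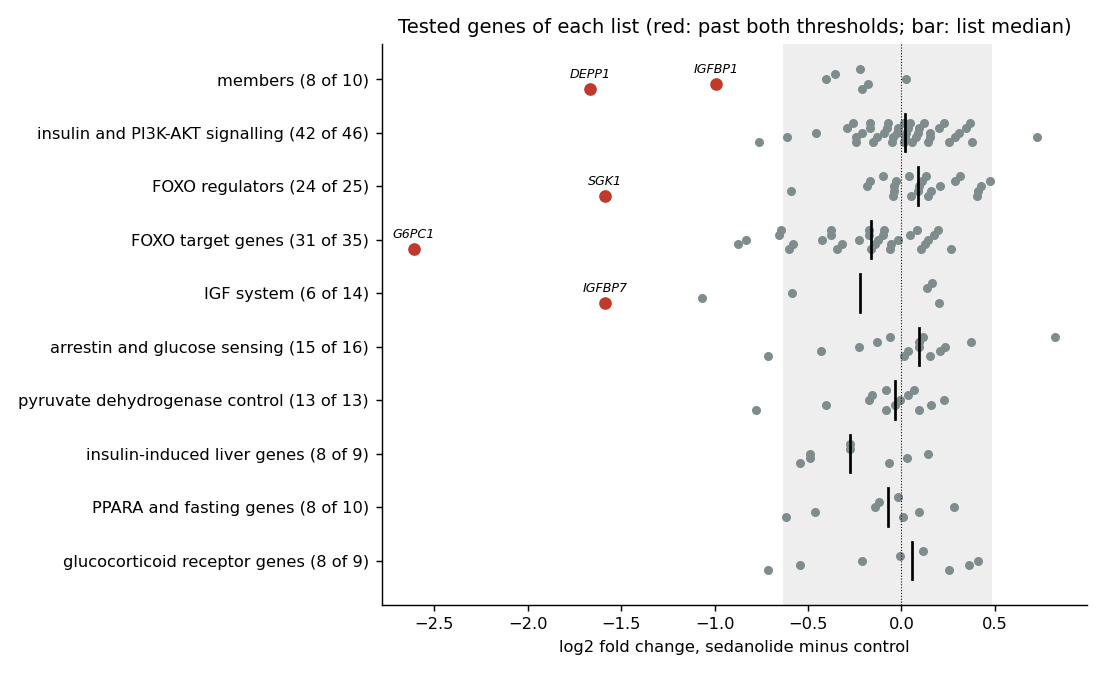
Log2 fold change of each tested gene of the members and of the 9 lists, with the number tested of the number listed. Red points passed both thresholds, vertical bars mark list medians, and the grey band spans the 5th to 95th percentile of all features (−0.63 to 0.48). SGK1, G6PC1 and IGFBP7 were the listed genes called, and all lay at −1.59 or below.

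The genes whose log2 CPM followed DEPP1 and IGFBP1 most closely over the 6 libraries were taken by Pearson's r among 14096 other features. Since 3 libraries of each group give the same contrast, r describes a separation of groups with a like spread, and no test was made. For DEPP1, 13 genes had r over 0.99, led by TRIM73 (0.999), PDZK1 (0.998), LGI4 (0.998), PHAF1 (0.997) and TP53INP2 (0.996). PDZK1, a scaffold protein of membrane transporters, stood at 50.4% of its control level, and TP53INP2, an autophagy protein, stood at 51.3%. TRIM73 has near-identical copies, so that its counts are uncertain. The expected counts of PDZK1 and PHAF1 were not whole numbers, so that their levels also carry the uncertainty of shared reads. PHAF1 stood at 84.0% of control, a far smaller difference than that of DEPP1.

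For IGFBP1, 9 genes had r over 0.99, led by SLC6A4 (0.999), DQX1 (0.998), TMEM8B (0.994), DLG3 (0.994) and PBXIP1 (0.993). SLC6A4, the serotonin transporter, stood at 72.1% of control and PBXIP1, a PBX-interacting protein, at 52.8%. The expected counts of TMEM8B were not whole numbers, so that its level carries the uncertainty of shared reads. All 5 genes shared with IGFBP1 the highest control value in control 2, and all but DLG3, which was highest in sedanolide 1, shared the highest sedanolide value in sedanolide 3. Control 2 and sedanolide 3 both lie on the side of low mitochondrial share.

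**Figure D5:**
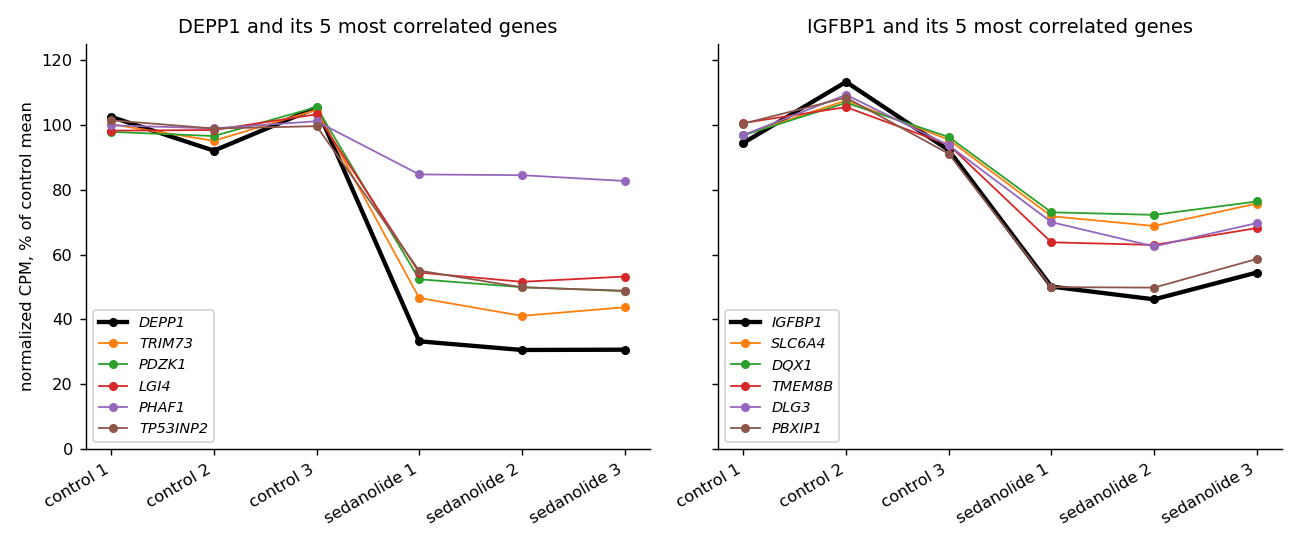
Normalized CPM of DEPP1 (left) and IGFBP1 (right), each with its 5 most correlated genes, in percent of the control mean of each gene and by library. DEPP1 was at 31.5% of control by the fit and its companions lay between 43.9% and 84.0%, and IGFBP1 was at 50.3% with companions between 52.8% and 73.9%.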

How the data were processed

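Per the submitters' notes and methods, reads passed through FastQC and Trimmomatic, alignment to GRCh38 by STAR and quantification by RSEM, and versions are not given in the sources used here. The authors deposited expected counts from RSEM, not normalized, for 61541 Ensembl genes and 2 reporters. A second deposited table holds log2 values of TPM plus 1 for 11006 features, and the filter behind it is not given in the sources used here. Gene symbols and positions came from GENCODE 44, which held 61369 of the identifiers, and promoter windows came from RefSeq (GRCh38.p14).

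Rounded counts were filtered by filterByExpr and scaled by TMM, and the robust quasi-likelihood fit of edgeR 4.0.16 (R 4.3.3) had no term but the group. The thresholds, a Benjamini-Hochberg FDR under 0.05 together with a fold change over 1.5, are those of the study's methods. The study used DESeq2, which was run as an alternative (DESeq2 1.42.0), and limma 3.58.1 was used for limma-voom and for the log2 table. A floor of 3 counts was taken for a count of 0, and floors cover counting error only. Fold changes within a side of component 1 were differences of mean log2 CPM with a prior count of 2.

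Named genes were the 10 members, of each list all called genes and up to 4 others with the largest difference among those with non-overlapping groups, and the 5 genes most correlated with DEPP1 and with IGFBP1. RASSF4 was named for its overlap with DEPP1. The members and lists were chosen with earlier results of these data known. Of the 177 listed genes, 1, SOD2, was not matched by symbol and was not analysed here. Alternatives were DESeq2, limma-voom, other scalings, other filters, a replicate block, the side of component 1 as a term, stricter thresholds, the log2 table with 2 pseudocounts and each library left out. The fit was tested on simulated data. Counts within each group differed by more than sampling noise, so no library was a duplicate.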

Additional observations from a re-analysis of the deposited data

How the results depend on the processing

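Over all features, 95 were called in the main analysis, 328 by DESeq2, 158 without a filter, 381 with a term for the side of component 1, 61 from the log2(TPM + 1) table and 11 at an FDR of 0.01, and 0 to 136 with each library left out. Of the listed insulin and FOXO genes, 3 were called in the main analysis, 6 by DESeq2, 8 with the side as a term and 1 at an FDR of 0.01, and 0 to 4 with each library left out. The counts of 0 came without control 1 and without sedanolide 2. Changing only the threshold to an FDR of 0.01 kept SGK1 among the listed genes.

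With the replicate number as a term (replicate block), edgeR called 0 features and 0 listed genes, and 772 and 18 had an unadjusted p under 0.05. No pairing by number was seen, since same-numbered deviations correlated at −0.13, −0.30 and −0.73 and no library correlated best with its own number. These deviations also hold the spread along component 1, so that they cannot exclude a pairing.

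The calls of DEPP1 and IGFBP1 describe the values that selected them and are no support for them. Both were called by DESeq2 and limma-voom, under both other scalings and both other filters, with the side as a term and without sedanolide 3. DEPP1 alone was called at an FDR of 0.01, at a fold change of 2 and in the log2 table with either pseudocount. The other members kept a negative fold change over 16 settings except INSR in 1, and FOXO3, near 0, changed its sign in 5. The causes were not tested. At 3 libraries a group and the depths given, IRS2 and PDK4 could not be compared.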

Other observations

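Of the 10 listed PPARA and fasting genes, 8 were tested and 0 were called by edgeR, with a median log2 fold change of −0.07. Of the 8, 0 were higher and 2 lower at an unadjusted p under 0.05, beside 11.9% of all features in either direction. ANGPTL4, a secreted inhibitor of lipoprotein lipase that fasting induces, stood at 5.32 ± 0.68 CPM in control and 3.45 ± 0.74 CPM in sedanolide libraries (SD, n = 3 each), with groups that did not overlap and a log2 fold change of −0.62 (adjusted p = 0.297 by edgeR's quasi-likelihood test). Within the sides of component 1 its differences were −0.22 and −0.97.

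Glucocorticoids raise IGFBP1 and SGK1 in the liver, and their receptor genes were therefore listed as well. Of 9 genes, 8 were tested and 0 were called by edgeR, with a median of 0.05. Of the 8, 1 was higher and 0 lower at an unadjusted p under 0.05, beside 11.9% of all features in either direction. FKBP5, a chaperone of the receptor that glucocorticoids induce, stood at 46.3 ± 3.23 CPM in control and 61.4 ± 4.48 CPM in sedanolide libraries (SD, n = 3 each), with a log2 fold change of 0.41 (adjusted p = 0.232 by edgeR). The receptor gene NR3C1 had −0.21 and TSC22D3, a further induced gene, had −0.71 at a level under 1.1 CPM in every library.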
